A study of Mus musculus with 18 samples.

Results

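This account concerns 9 mouse genes for catecholamine receptors: the adrenergic receptor genes Adra1a, Adra1b, Adra1d, Adra2a, Adra2c and Adrb1 and the dopamine receptor genes Drd1, Drd2 and Drd5. They were chosen by symbol, matched to their Ensembl identifiers, from a hippocampal RNA-seq table of 57180 gene identifiers. All 9 were among the 16738 genes with enough counts to be tested. The libraries came from adolescent male wild-type C57BL/6J mice, 6 per group and 1 library per mouse. Exercise mice went through chronic social defeat stress (CSDS) and also trained aerobically, beginning 1 week before the defeat and going on through it. CSDS mice are labelled with the defeat alone, in which a mouse is repeatedly placed with an aggressive resident. Control mice had no treatment. None of the groups used here trained without defeat, so exercise was measured only on top of CSDS. The comparisons ask how stress, and training during stress, bear on hippocampal transcript levels. Estimated counts summed to 18911080 to 24136591 per library, and values are CPM, counts per 1000000 counts of the library after TMM scaling.

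Noradrenaline reaches the hippocampus mainly from the locus coeruleus, and dopamine from the ventral tegmental area and also from the locus coeruleus. The alpha-1 receptors (Adra1a, Adra1b, Adra1d) couple through Gq to phospholipase C. The alpha-2 receptors (Adra2a, Adra2c) couple through Gi and Go, restrain adenylyl cyclase, and act both as autoreceptors on noradrenergic endings and on the receiving neurons. Adrb1 and the D1-like receptors Drd1 and Drd5 raise cyclic AMP through Gs or its relative Golf, whereas the D2-like receptor Drd2 lowers it through Gi and Go. In the mouse dentate gyrus, Drd2 is known for its expression in hilar mossy cells, and in the striatum Drd1 and Drd2 mark the 2 classes of projection neuron. Noradrenaline and dopamine acting on these receptors are known to modulate hippocampal plasticity and memory.

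The genes lie on 7 chromosomes of GRCm38 (GENCODE M21 annotation). Adra1a is at chr14:66635251-66771168, Adra1b at chr11:43774606-43901210 and Adra1d at chr2:131545850-131562283. Adra2a is at chr19:54044151-54048982, Adra2c at chr5:35278319-35281763 and Adrb1 at chr19:56722199-56733113. Drd1 is at chr13:54051183-54055705, Drd2 at chr9:49340627-49408177 and Drd5 at chr5:38319367-38322518. Adra1b, Adra1d and Drd1 are on the minus strand. RefSeq promoter windows of GRCm38.p6, 300 bases from 250 before to 50 after an annotated start, were found for 7 of the 9 genes. From these, 5 windows are printed. The pair of starts of Adra1b is shown because that gene varied most between libraries, and Adra2c, Adra2a and Adrb1 because they are among the receptors with an unadjusted p under 0.05 in a comparison with exercise mice. Capitals mark matches on either strand to the GC box GGGCGG (reverse complement CCGCCC), which 35.7% of 32851 such windows hold, and to the cyclic AMP response element half-site TGACG (reverse complement CGTCA), which 20.8% hold.
Adra1b, inner start, chr11:43836440-43836739, minus strand: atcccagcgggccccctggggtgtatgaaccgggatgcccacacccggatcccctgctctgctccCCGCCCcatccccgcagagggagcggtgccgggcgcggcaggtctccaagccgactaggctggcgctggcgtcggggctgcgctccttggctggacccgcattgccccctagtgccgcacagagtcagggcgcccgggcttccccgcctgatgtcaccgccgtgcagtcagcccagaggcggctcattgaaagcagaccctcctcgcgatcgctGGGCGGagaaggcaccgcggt
Adra1b, outer start, chr11:43901188-43901487, minus strand: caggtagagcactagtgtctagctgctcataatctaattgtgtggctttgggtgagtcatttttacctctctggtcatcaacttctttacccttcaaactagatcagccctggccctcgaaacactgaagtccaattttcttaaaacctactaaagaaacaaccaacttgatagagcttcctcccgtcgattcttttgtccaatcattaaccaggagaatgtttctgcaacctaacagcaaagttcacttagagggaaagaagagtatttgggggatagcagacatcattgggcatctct
Adra2c, chr5:35278316-35278615, plus strand: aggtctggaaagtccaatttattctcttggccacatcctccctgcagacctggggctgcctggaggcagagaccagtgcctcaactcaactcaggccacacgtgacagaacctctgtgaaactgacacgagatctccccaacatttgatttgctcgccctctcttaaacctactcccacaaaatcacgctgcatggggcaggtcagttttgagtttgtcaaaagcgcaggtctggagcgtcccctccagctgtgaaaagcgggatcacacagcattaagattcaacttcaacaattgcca
Adra2a, chr19:54045009-54045308, plus strand: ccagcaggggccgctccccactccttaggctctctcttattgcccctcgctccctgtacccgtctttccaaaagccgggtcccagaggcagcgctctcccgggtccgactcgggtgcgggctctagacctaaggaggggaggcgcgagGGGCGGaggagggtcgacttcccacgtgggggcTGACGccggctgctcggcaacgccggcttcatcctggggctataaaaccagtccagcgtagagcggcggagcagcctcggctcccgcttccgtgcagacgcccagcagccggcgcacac
Adrb1, chr19:56721867-56722166, plus strand: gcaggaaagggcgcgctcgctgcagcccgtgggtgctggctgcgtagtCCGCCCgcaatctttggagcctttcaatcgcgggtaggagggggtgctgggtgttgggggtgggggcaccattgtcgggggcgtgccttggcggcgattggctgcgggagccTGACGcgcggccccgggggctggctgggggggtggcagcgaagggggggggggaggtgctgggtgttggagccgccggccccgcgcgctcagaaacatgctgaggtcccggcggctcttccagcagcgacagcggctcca
The windows at the starts of Adra1b differed in base composition. The inner one had a GC content of 71.3% and 2 GC boxes, and the outer one had 42.3% and none of either motif. The Adra2c window had 51.3% GC, near the median of 52.7% over all windows, and held neither motif. The Adra2a and Adrb1 windows, with 68.7% and 72.3% GC, each held 1 GC box and 1 half-site. These matches describe letters in the windows and were not tested for any function.

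Some libraries carried markers of other tissue, which touches several of the receptors. Control replicate 2 had 10.4 CPM of the granule cell gene Prox1, where the rest were at 83.5 to 145.2 CPM, and 0.408 CPM of the granule cell gene C1ql2, against 40.7 CPM or more elsewhere. It also had 258.6 CPM of the cortical gene Lamp5, against 25.7 to 42.8 CPM elsewhere, and it was the highest library for 8 of 12 neocortical markers. The CA1 gene Fibcd1 was at 11.3 CPM there, against 107.5 CPM or more elsewhere. The 8 CA1 markers together did not stand apart, with a sum of 733.8 CPM against 672.1 to 1584.7 CPM elsewhere. The 12 granule cell markers summed to 214.8 CPM in control replicate 2, against 562.5 to 1043.8 CPM elsewhere. The granule cell and neocortical markers of this library thus go against a label of hippocampus alone, and the CA1 sum does not. Thalamic markers stood apart in 4 other libraries, exercise replicates 3 and 6 and control replicates 1 and 3. In these, Tcf7l2, a transcription factor of thalamic neurons, was at 28.8 to 142.9 CPM, against 3.99 to 7.92 CPM in the other 14, and 9 of 12 thalamic markers were higher in all 4 than in any other library. Summed over the 12 markers, thalamic levels were 174.4 to 1301.9 CPM in exercise, 171.3 to 230.5 CPM in CSDS and 186.2 to 894.7 CPM in control libraries. Fold changes without these 5 libraries are given beside those from all libraries for the receptors that moved with them, and for all 9 in the plot of fold changes. Choroid plexus markers varied in another way. Their sum over 8 genes was 64.3 to 6614.5 CPM in exercise, 97.2 to 8518.4 CPM in CSDS and 19.6 to 5502.4 CPM in control libraries. Ttr, on that list, was at 7938.7 CPM in CSDS replicate 5 and 6140.7 CPM in exercise replicate 2. Leaving out the 5 libraries thus does not leave libraries free of other tissue.

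Levels between genes were compared as CPM per kb of the longest annotated transcript. Adra1d had the highest level, with a median of 23.5 CPM per kb over the 18 libraries and a range of 11.5 to 53.8. It lay above Adra2c in 18 of 18 libraries. Adra2c followed with a median of 7.36, Adrb1 with 5.63, Drd5 with 4.61 and Adra2a with 3.41 CPM per kb. A lower tier held Adra1b at 1.35, Drd1 at 1.25, Adra1a at 1.12 and Drd2 at 0.931 CPM per kb. The ranges of all neighbours in this order overlapped. Adra2c was above Adrb1 in 16 libraries, and within the lower tier each gene was above the next in only 11 to 13 libraries, so that the order there was not separable from the spread. With the union of exons as length Adra1a came last, at 0.552 CPM per kb, and with the median transcript length Adrb1 came second, at 9.64 CPM per kb. Among the other catecholamine receptor genes, Adrb3 (0.0881 to 1.27 CPM) and Adra2b (0 to 4.05 CPM) had enough counts to be tested. Drd3 had at most 3 counts, Drd4 at most 8 and the trace amine receptor Taar1 had 0 counts in every library, and these 3 were too low to test.

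**Figure D1:**
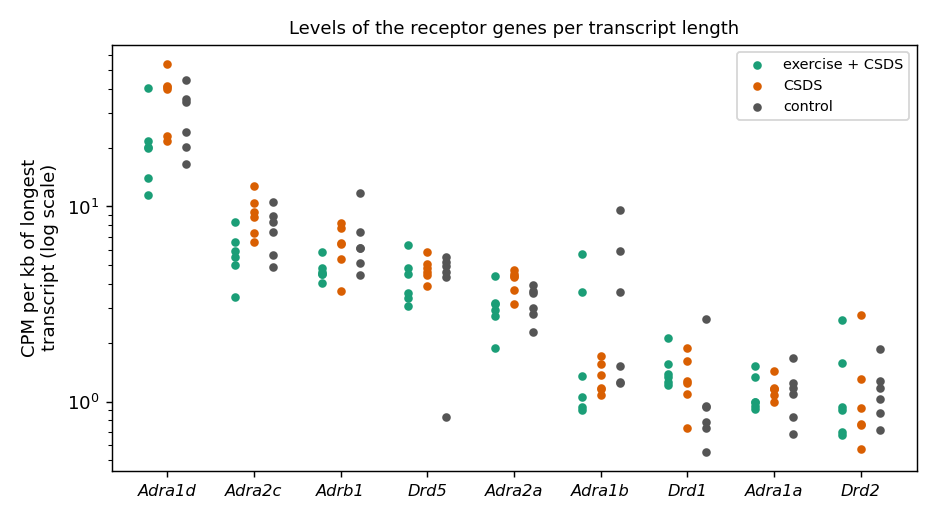
Levels of the 9 receptor genes in CPM per kb of longest transcript (log scale), 1 point per library, with exercise + CSDS, CSDS and control libraries side by side. Adra1d (median 23.5) lies above Adra2c (7.36) in every library, and the 4 genes from Adra1b to Drd2 (medians 1.35 to 0.931) overlap widely.

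None of the 9 genes passed an adjusted p of 0.05 in any of the 3 comparisons (edgeR quasi-likelihood test, Benjamini-Hochberg over 16738 genes). Over all genes tested, 0% passed in CSDS against control, 0% in exercise with CSDS against CSDS and 0.0179% in exercise with CSDS against control, so the receptors' count of 0 is near the background. DESeq2 called 0 of 9 in each comparison, and limma voom with quality weights called 4 of 9 in exercise with CSDS against CSDS, where it called 33.3% of all genes, and 0 in the others. At an unadjusted p under 0.05 there were 2 of 9 receptors in CSDS against control (Adra1b and Adra2a), where 3.51% of all genes stood. There were 3 of 9 in exercise with CSDS against CSDS (Adra1d, Adra2a and Adra2c), where 15.6% of all genes stood, and 1 of 9 in exercise with CSDS against control (Adrb1), where 11.2% did. The median log2 fold change of the 9 was 0.17, -0.15 and -0.08 in these comparisons in turn, beside 0.00, 0.02 and 0.01 over all genes tested. The first 2 comparisons share the CSDS libraries and the first and last the control libraries, so their values are not independent. For none of the 9 did the CPM values of 2 groups fail to overlap, as they did for 0.239%, 0.89% and 0.562% of all genes in the same comparisons.

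**Figure D2:**
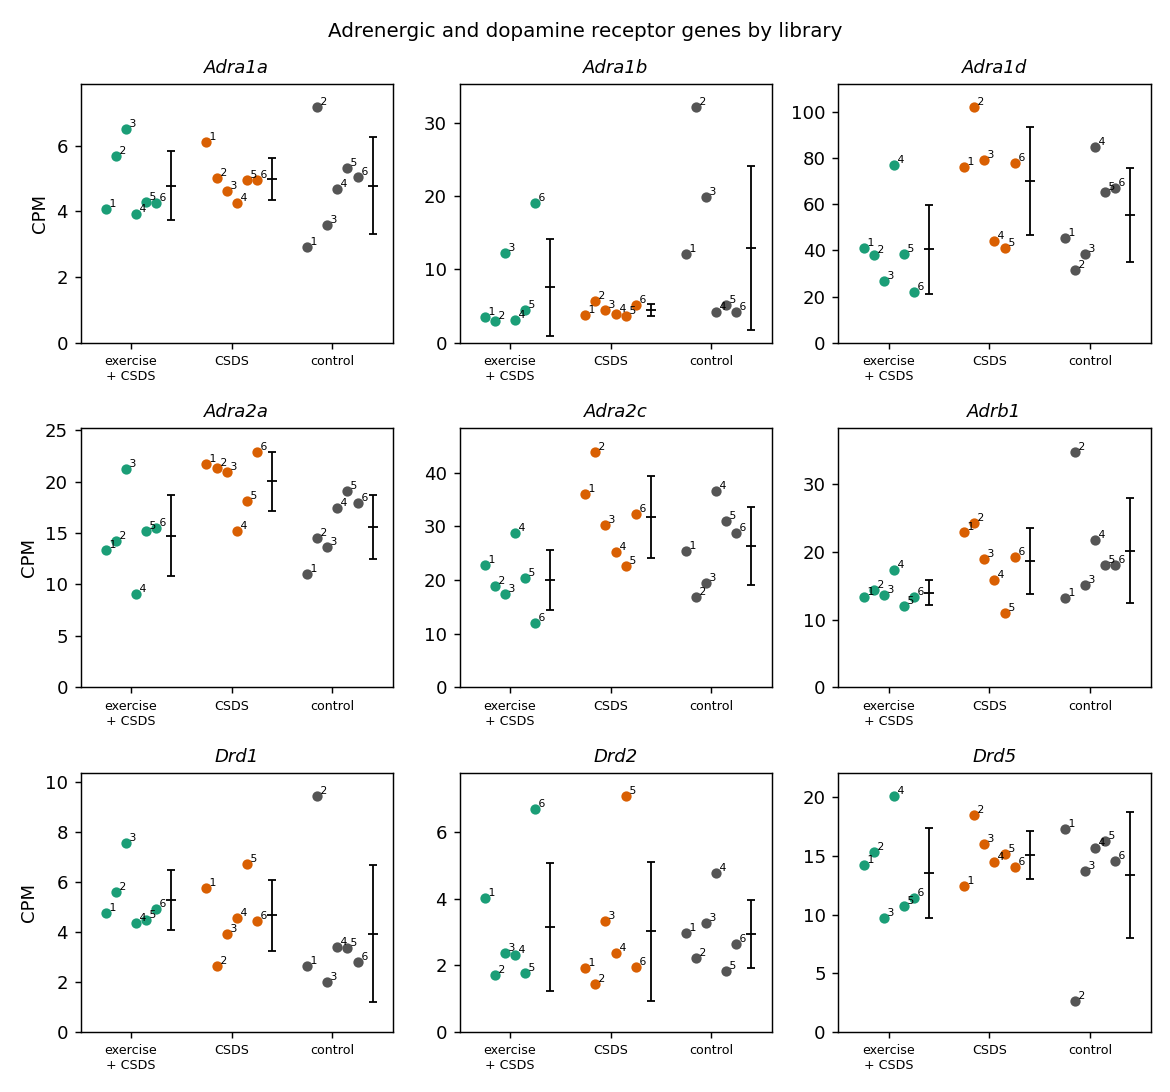
TMM-scaled CPM of each receptor gene in the 18 libraries, in panels with separate linear axes from 0, with points numbered by replicate and bars giving mean ± SD of 6 mice. The groups overlap for every gene. Within a group, single libraries stand far out for Adra1d, Drd1, Drd2 and Drd5, such as control replicate 2 with 2.63 CPM of Drd5. For Adra1b 5 libraries are high, at 12.1 CPM or more, with control replicate 2 highest at 32.1 CPM.

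Among the alpha-1 genes, Adra1a, a Gq-coupled receptor, had similar means in the groups, 4.78 ± 1.06 CPM in exercise, 4.99 ± 0.624 CPM in CSDS and 4.79 ± 1.48 CPM in control mice (SD, n = 6 each). It had 3.91, 4.26 and 6.51 CPM as the lowest, median and highest values in exercise mice, 4.26, 4.95 and 6.12 CPM in CSDS mice and 2.93, 4.86 and 7.17 CPM in control mice. The groups overlapped throughout and both extremes were control libraries. Its log2 fold changes were 0.06 ± 0.19 in CSDS against control and -0.06 ± 0.19 (SE) in exercise with CSDS against CSDS, with adjusted p of 0.993 and 0.891 by edgeR.

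Adra1b was the least steady of the receptors. The lowest, median and highest values were 3.0, 4.004 and 19.0 CPM in exercise mice, 3.59, 4.21 and 5.67 CPM in CSDS mice and 4.15, 8.62 and 32.1 CPM in control mice. All 6 CSDS libraries were low, and 5 libraries stood high, with 12.1 CPM or more against 5.67 CPM or less in the rest: exercise replicates 3 and 6 and control replicates 1, 2 and 3. Its biological coefficient of variation, edgeR's estimate of the relative spread between mice, was 0.612, higher than in 99.1% of the 1000 genes nearest in level, whose median was 0.191. Group means were 7.56 ± 6.62 CPM in exercise, 4.45 ± 0.831 CPM in CSDS and 12.9 ± 11.2 CPM in control mice (SD, n = 6 each).

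The 5 high Adra1b libraries were those in which thalamic or neocortical markers stood apart. They comprised the 4 libraries in which Tcf7l2 exceeded 20 CPM and control replicate 2, which held the highest Adra1b value and 3.99 CPM of Tcf7l2. The same 5 libraries were the 5 highest for Rora, a nuclear receptor among the thalamic markers, and for Plcb4, a phospholipase C of the Gq pathway. The 12 thalamic markers all had log2 fold changes below 0 in CSDS against control, with a median of -1.10, and all above 0 in exercise with CSDS against CSDS, with a median of 1.18, and 0 of them passed the test in either. With all libraries, Adra1b had a log2 fold change of -1.53 ± 0.54 in CSDS against control (edgeR adjusted p = 0.993), 0.76 ± 0.54 in exercise with CSDS against CSDS (adjusted p = 0.48) and -0.77 ± 0.53 in exercise with CSDS against control (adjusted p = 0.587). Without control replicate 2 the difference between CSDS and control was -1.02 ± 0.50 on the log2 scale. Without the 5 libraries it was -0.01 ± 0.18, in exercise with CSDS against CSDS it was -0.33 ± 0.17, on the other side of 0, and in exercise with CSDS against control it was -0.34 ± 0.20. The 13 libraries that remained lay between 3.0 and 5.67 CPM. Because the 5 left out hold the 5 highest Adra1b values, this narrow range and the loss of the CSDS difference follow from the choice. The source of the high values was not tested. In whole tissue, fewer cells of a type and less RNA per cell cannot be told apart. Without exercise replicate 6 the difference between exercise and CSDS was 0.24 ± 0.51.

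**Figure D3:**
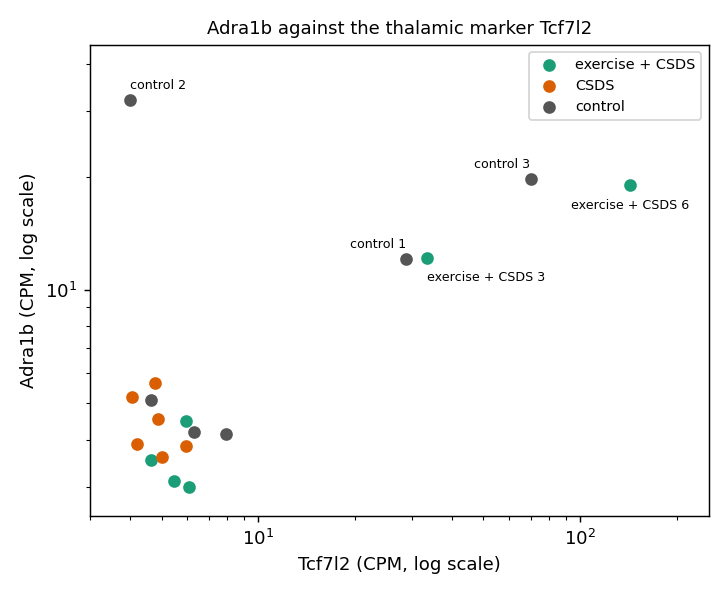
Adra1b against the thalamic marker Tcf7l2 in 18 libraries, both in CPM on log scales, coloured by group, with the libraries over 10 CPM of Adra1b named. Exercise replicates 3 and 6 and control replicates 1 and 3 are high in both genes, control replicate 2 is high in Adra1b alone, and all 6 CSDS libraries lie at 3.59 to 5.67 CPM of Adra1b.

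Adra1d, the Gq-coupled receptor with the highest level per length, had 21.8, 38.2 and 77.1 CPM as the lowest, median and highest values in exercise mice. The corresponding values were 41.1, 77.2 and 102.1 CPM in CSDS mice and 31.5, 55.5 and 84.8 CPM in control mice. Exercise replicate 4 held the 77.1 CPM, within the CSDS range. The other exercise libraries were at 21.8 to 40.9 CPM, close to the lowest CSDS library at 41.1 CPM. The log2 fold change was -0.79 ± 0.30 in exercise with CSDS against CSDS (edgeR adjusted p = 0.243). It was 0.34 ± 0.30 in CSDS against control (adjusted p = 0.993) and -0.46 ± 0.30 in exercise with CSDS against control (adjusted p = 0.57). Without the 5 libraries, the values were -0.52 ± 0.26 in exercise with CSDS against CSDS, -0.05 ± 0.28 in CSDS against control and -0.57 ± 0.31 in exercise with CSDS against control. The controls left out, at 31.5 to 45.5 CPM of Adra1d, were the lowest of the controls. The exercise libraries left out, at 21.8 and 26.7 CPM, were the lowest of theirs. These shifts therefore follow from which values were removed.

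The alpha-2 gene Adra2c followed the same libraries. It had 11.9, 19.6 and 28.8 CPM as the lowest, median and highest values in exercise mice, 22.6, 31.3 and 43.9 CPM in CSDS mice and 16.9, 27.05 and 36.5 CPM in control mice. Its highest exercise value was again replicate 4, and 4 of the 6 exercise libraries were below the lowest CSDS library. Means were 19.98 ± 5.62, 31.8 ± 7.66 and 26.3 ± 7.30 CPM in exercise, CSDS and control mice (SD, n = 6 each). The log2 fold change was -0.67 ± 0.21 in exercise with CSDS against CSDS (edgeR adjusted p = 0.206, the lowest of the 27 receptor tests), 0.27 ± 0.21 in CSDS against control (adjusted p = 0.993) and -0.40 ± 0.21 in exercise with CSDS against control (adjusted p = 0.483). Without the 5 libraries, the values were -0.48 ± 0.18 in exercise with CSDS against CSDS, -0.01 ± 0.19 in CSDS against control and -0.50 ± 0.20 in exercise with CSDS against control. As for Adra1d, the libraries left out were the lowest of their groups, at 16.9 to 25.4 CPM in control and 11.9 and 17.3 CPM in exercise mice. These shifts too follow from which values were removed.

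Adra1d and Adra2c separated the 18 libraries in the same way. The 8 highest libraries for Adra1d (65.5 CPM or more, against 45.5 CPM or less in the others) were also the 8 highest for Adra2c (28.7 CPM or more, against 25.4 CPM or less). They were exercise replicate 4, CSDS replicates 1, 2, 3 and 6 and control replicates 4, 5 and 6. Of these 8, 7 were among the 8 highest for Adrb1 and 6 for Adra2a. Of 8 CA1 pyramidal cell markers, Pou3f1, Fibcd1 and Mpped1 had the same 8 highest libraries, Wfs1 and Dkk3 shared 7 of them and Lefty1 shared 5. Among 12 dentate granule cell markers, C1ql2 and Lct had all 8 in common with Adra1d and Tdo2 had 1.

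Base composition moved with this split. The transcripts of Adra1d and Adra2c had a GC content of 65.4% and 65.5%, against a median of 50.5% over the genes tested, of which 0.505% were at or above Adra1d. The CA1 and granule cell markers with the same 8 highest libraries ranged more widely. Pou3f1 had 63.9%, C1ql2 63.4%, Fibcd1 59.4%, Mpped1 56.2% and Lct 50.9% GC, the last near the median. For each library, a GC slope was taken as the change of its log2 CPM, relative to the mean of all libraries, per 10 percentage points of transcript GC. The 7 libraries with the highest slopes, 0.11 to 0.306 log2 units, were all among the 8 highest for Adra1d. Slopes were -0.443 to 0.195 in exercise, -0.153 to 0.283 in CSDS and -0.092 to 0.306 in control libraries. With a smooth of each library's GC trend as an offset, the SD of log2 CPM over the 18 libraries was 0.373 for Adra1d, against 0.638 without it, and 0.242 for Adra2c, against 0.47. After this correction the log2 fold change in exercise with CSDS against CSDS was -0.33 ± 0.19 for Adra1d (adjusted p = 0.855) and -0.20 ± 0.13 for Adra2c (adjusted p = 0.883). The offset takes out any difference that runs along GC content, whatever its source, and the part of base composition in the uncorrected values was not tested otherwise.

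One library and the choice of model decided whether these genes passed. Without exercise replicate 4, Adra1d had a log2 fold change of -1.10 ± 0.27 (adjusted p = 0.0406) and Adra2c one of -0.82 ± 0.21 (adjusted p = 0.0424) in exercise with CSDS against CSDS by edgeR. In that fit 3.71% of all genes passed in either direction and 2.85% passed with lower levels in exercise mice. With limma voom and quality weights, which give deviating libraries less weight, Adra1d (-1.03), Adra2c (-0.78), Adra2a (-0.56) and Adrb1 (-0.60) passed, all lower in exercise mice. By that method 33.3% of all genes passed in either direction and 17.9% passed with lower levels in exercise mice. With replicate 4 left out and GC corrected together, the values were -0.49 ± 0.18 for Adra1d (adjusted p = 0.365) and -0.23 ± 0.14 for Adra2c (adjusted p = 0.553).

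**Figure D4:**
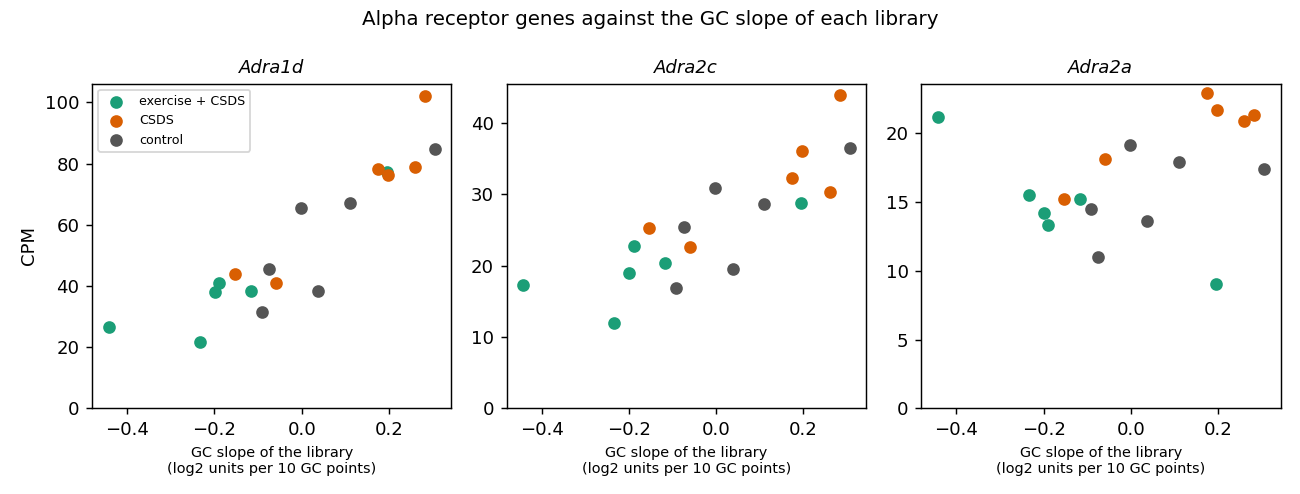
CPM of Adra1d, Adra2c and Adra2a against the GC slope of each of the 18 libraries (log2 units per 10 percentage points of transcript GC), coloured by group. Adra1d and Adra2c are high in the libraries with slopes of 0.11 or more and low in 5 of the 6 exercise libraries, and Adra2a has its lowest value, 9.07 CPM, in exercise replicate 4, a library with a slope of 0.195.

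Adra2a, also an alpha-2 receptor, did not share the high value of exercise replicate 4. Its lowest, median and highest values were 9.07, 14.7 and 21.2 CPM in exercise mice, 15.2, 21.1 and 22.9 CPM in CSDS mice and 10.96, 15.9 and 19.1 CPM in control mice. Exercise replicate 4 was the lowest of the 18 libraries and exercise replicate 3 reached the CSDS median. Means were 14.7 ± 3.92, 20.02 ± 2.84 and 15.6 ± 3.08 CPM in exercise, CSDS and control mice (SD, n = 6 each). The log2 fold change was -0.44 ± 0.17 in exercise with CSDS against CSDS (edgeR adjusted p = 0.247) and 0.36 ± 0.17 in CSDS against control (adjusted p = 0.993). Between exercise and control mice it was -0.08 ± 0.17 (adjusted p = 0.884). Without the 5 libraries the values were -0.63 ± 0.15 in exercise with CSDS against CSDS (adjusted p = 0.391), 0.14 ± 0.16 in CSDS against control (adjusted p = 0.999) and -0.49 ± 0.17 in exercise with CSDS against control (adjusted p = 0.417). The exercise libraries left out, at 15.5 and 21.2 CPM, were the highest of their group. The controls left out, at 10.96 to 14.5 CPM, were the lowest of theirs, so these shifts follow from which values were removed. With the GC correction of all libraries the values were -0.14 ± 0.18, 0.27 ± 0.18 and 0.13 ± 0.18 in the same order (adjusted p of 0.949, 0.993 and 0.917), so that exercise against control changed sign.

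Adrb1, the Gs-coupled beta receptor, varied least in exercise mice. Its lowest, median and highest values were 12.0, 13.5 and 17.3 CPM in exercise mice, 10.9, 19.1 and 24.3 CPM in CSDS mice and 13.2, 18.1 and 34.8 CPM in control mice. The highest value was control replicate 2 and the lowest CSDS replicate 5. Against control mice, exercise mice had a log2 fold change of Adrb1 of -0.53 ± 0.21 (edgeR adjusted p = 0.367), and -0.30 ± 0.17 (adjusted p = 0.48) without control replicate 2. Against CSDS mice it was -0.42 ± 0.21 (adjusted p = 0.342). Between CSDS and control it was -0.11 ± 0.21 (adjusted p = 0.993), and 0.12 ± 0.17 without control replicate 2. Its transcript GC content was 53.4%, and the GC correction left the value in exercise with CSDS against CSDS at -0.35 ± 0.20.

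Of the dopamine receptors, Drd1 depended most on control replicate 2. Its lowest, median and highest values were 4.36, 4.85 and 7.57 CPM in exercise mice, 2.62, 4.49 and 6.72 CPM in CSDS mice and 1.98, 3.08 and 9.44 CPM in control mice. The highest of all was control replicate 2, and the other 5 control libraries were at 1.98 to 3.38 CPM, below every exercise library. With all libraries the log2 fold change was 0.42 ± 0.31 in exercise with CSDS against control (edgeR adjusted p = 0.615), 0.25 ± 0.31 in CSDS against control (adjusted p = 0.993) and 0.18 ± 0.31 in exercise with CSDS against CSDS (adjusted p = 0.799). Without control replicate 2 it was 0.90 ± 0.22 in exercise with CSDS against control (adjusted p = 0.195) and 0.72 ± 0.22 in CSDS against control (adjusted p = 1). In that setting Drd1 was the 1 receptor of 9 whose exercise and control values did not overlap, as was so for 0.908% of all genes. Control replicate 2 also had 179.7 CPM, against 52.1 to 142.2 CPM elsewhere, of Ppp1r1b, the phosphatase inhibitor DARPP-32 downstream of Drd1. It was the highest library for 3 of 15 striatal markers. Summed over that list, levels were 241.6 to 310.1 CPM in exercise, 246.9 to 378.8 CPM in CSDS and 252.1 to 444.8 CPM in control libraries. Without the 5 libraries with high thalamic or neocortical markers the Drd1 values were 0.59 ± 0.25 in exercise with CSDS against control (adjusted p = 0.458) and 0.55 ± 0.24 in CSDS against control (adjusted p = 0.999).

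Drd5, the other D1-like receptor, was lowest in the library where Drd1 was highest. Its lowest, median and highest values were 9.74, 12.8 and 20.1 CPM in exercise mice, 12.4, 14.8 and 18.5 CPM in CSDS mice and 2.63, 15.1 and 17.3 CPM in control mice. Control replicate 2 held the 2.63 CPM, and the other control libraries were at 13.7 to 17.3 CPM. Its log2 fold changes were small in all comparisons, 0.17 ± 0.29 in CSDS against control, -0.15 ± 0.29 in exercise with CSDS against CSDS and 0.02 ± 0.29 in exercise with CSDS against control, with adjusted p of 0.993, 0.815 and 0.985 by edgeR. Without control replicate 2 the standard errors were 0.15 to 0.16 and the values were -0.04, -0.15 and -0.19 in the same order.

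Drd2, in the lower tier of levels per length, had 2 libraries that stood out. Its lowest, median and highest values were 1.71, 2.35 and 6.70 CPM in exercise mice, 1.45, 2.16 and 7.08 CPM in CSDS mice and 1.82, 2.81 and 4.76 CPM in control mice. The high libraries were CSDS replicate 5 and exercise replicate 6, and the medians of the groups were close. In CSDS replicate 5 the striatal gene Ppp1r1b was at 142.2 CPM, against 52.1 to 179.7 CPM elsewhere, and Adora2a, the adenosine receptor that marks Drd2 neurons of the striatum, was at 4.95 CPM, against 1.60 to 7.23 CPM elsewhere, so neither was highest there. In exercise replicate 6, Calb2, which is on the thalamic and on the mossy cell list, was at 224.1 CPM, against 8.67 to 90.4 CPM elsewhere. Summed levels of the mossy cell list, which includes Drd2, were 80.7 to 269.9 CPM in exercise, 85.6 to 108.5 CPM in CSDS and 47.1 to 139.3 CPM in control libraries. The part of other cells in these Drd2 values was not tested. The log2 fold changes were 0.03 ± 0.39 in CSDS against control, 0.07 ± 0.39 in exercise with CSDS against CSDS and 0.10 ± 0.39 in exercise with CSDS against control, with adjusted p of 0.998, 0.94 and 0.946 by edgeR. Without CSDS replicate 5 the value in exercise with CSDS against CSDS was 0.50 ± 0.35, and without exercise replicate 6 it was -0.30 ± 0.37.

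**Figure D5:**
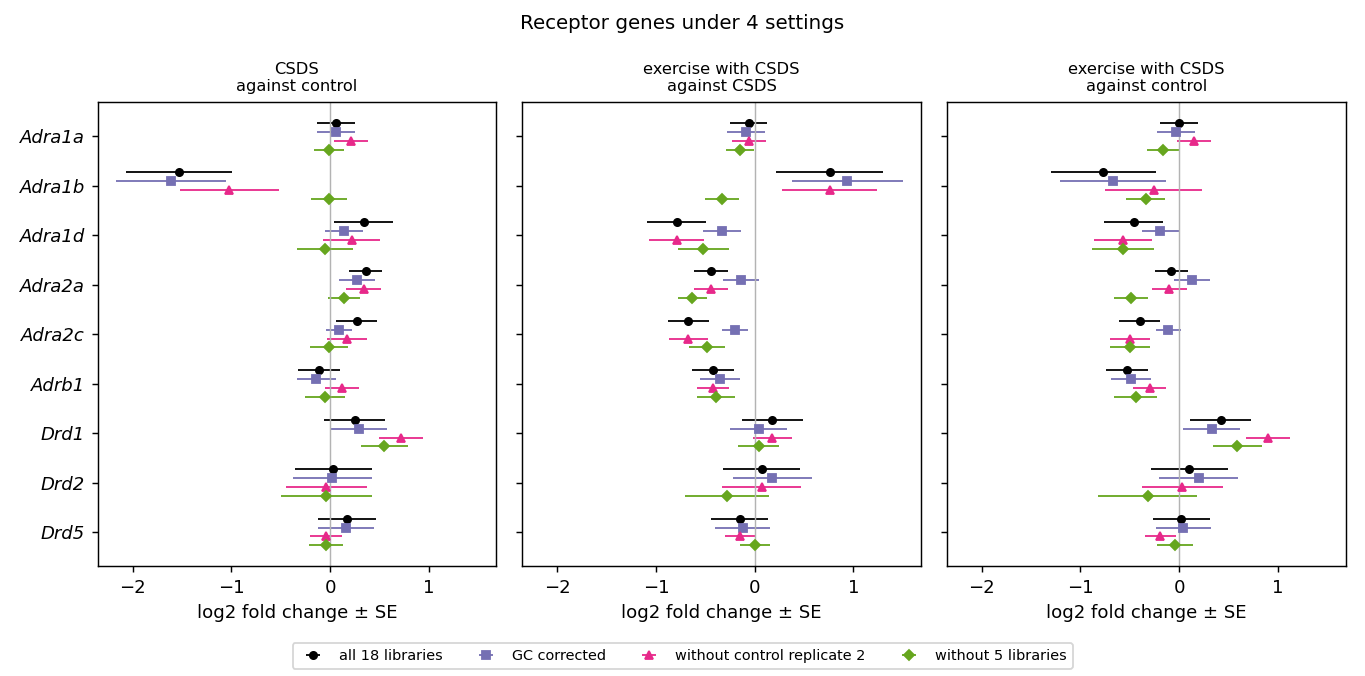
Log2 fold changes with standard errors for the 9 receptor genes in the 3 comparisons. The fits are to all 18 libraries, with GC correction, without control replicate 2 and without the 5 libraries with high thalamic or neocortical markers. In CSDS against control Adra1b is at -1.53 in the fit to all libraries and at -0.01 without the 5, which hold its 5 highest values. In exercise with CSDS against CSDS, Adra1d and Adra2c are at -0.79 and -0.67 in the fit to all libraries. With GC correction they are at -0.33 and -0.20.

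No gene passed by edgeR in the 3 lists that act before and after these receptors, where 0% to 0.0179% of all genes passed in a comparison, so that their counts of 0 are near the background. Of 13 genes for catecholamine synthesis, transport and breakdown 10 were tested, and 0 passed in any comparison. Between exercise and CSDS mice, Maoa, which degrades noradrenaline and dopamine, averaged 42.3 ± 8.09 CPM in exercise and 32.2 ± 6.40 CPM in CSDS mice (SD, n = 6 each), a log2 fold change of 0.39 ± 0.15 (edgeR adjusted p = 0.252). Of 24 genes for G proteins, phospholipases and cyclases all were tested and 0 passed. Adcy5, an adenylyl cyclase, had -0.45 ± 0.15 in exercise with CSDS against CSDS (adjusted p = 0.216). Plcb4 had -1.13 ± 0.52 in CSDS against control (adjusted p = 0.993), with means of 16.6 ± 4.91 CPM in CSDS and 36.4 ± 28.0 CPM in control mice, and its 5 highest libraries were those of Adra1b. All 25 genes for receptor regulators and effectors were tested and 0 passed. The smallest p in exercise with CSDS against CSDS was that of Gipc1, a PDZ protein that binds D2-like receptors, at -0.48 ± 0.14 (adjusted p = 0.198). Ppp1r1b had, in exercise with CSDS against control, -0.62 ± 0.24 (adjusted p = 0.35). Medians of the synthesis, G protein and regulator lists in exercise with CSDS against CSDS were 0.16, -0.11 and -0.08, beside 0.02 over all genes tested, with 6 of 10, 9 of 24 and 10 of 25 genes above 0. Levels of noradrenergic neuron genes were very low, with a summed 1.16 to 1.83 CPM in exercise, 1.06 to 1.78 CPM in CSDS and 1.04 to 2.86 CPM in control libraries, and 2 of 5 were tested.

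For each receptor, the 2 tested genes whose log2 CPM ranked the 18 libraries most alike were taken, as a description. Adra1d was closest to Pfkl (Spearman rho 0.98, Pearson r 0.93) and Cers1 (rho 0.97, r 0.96), and Adra2c to Cebpb (rho 0.97, r 0.92) and Insyn1 (rho 0.97, r 0.94). Adrb1 was closest to Nr2f1 (rho 0.94, r 0.84) and Slc4a3 (rho 0.93, r 0.85). Drd5 was closest to Rmc1 (rho 0.92, r 0.88) and to the CA1 marker Lefty1 (rho 0.90, r 0.97). Adra1b was closest to Opn3 (rho 0.86, r 0.93) and Cntn4 (rho 0.85, r 0.92). The others had no gene with a rho above 0.85. Adra1a was closest to Asgr1 (rho 0.85, r 0.70) and Drd1 to Cpa6 and Slc1a2 (rho 0.83 and r 0.80 each). Adra2a was closest to Hap1 (rho 0.82, r 0.53) and Drd2 to Nhlrc4 (rho 0.81, r 0.66), with r well below rho. The points share libraries, depth and the base composition and tissue markers described above. Without control replicate 2, rho of Drd5 with Lefty1 was 0.88 over 17 libraries, and r without the 2 libraries farthest from the median of Drd5 was 0.82.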

How the data were processed

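RNA from mouse hippocampus was sequenced as stranded poly(A) libraries, 1 per mouse, with a minimum RNA integrity number of 7, all with 1 batch label, per the labels' protocols. The authors deposited 1 table of estimated counts (expected counts, not normalized). Per the submitters' processing notes, fastp, HISAT2, RSEM and GRCm38 (mm10) were used; which versions, annotation and strand setting is not given in the sources used here. Fractional values made up 22.7% of those above 0, and the table was rounded to whole counts. Of 57180 identifiers 51884 matched a symbol, and the 5296 others held 0.62% of the counts.

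Counts were filtered (filterByExpr, minimum count 10, minimum total 15), scaled by TMM and tested with edgeR 4.0.16 in R 4.3.3, a quasi-likelihood F test over all 18 libraries with 1 term per group, two-sided, with Benjamini-Hochberg adjustment over the 16738 genes tested. The scripts were tested on simulated counts. Replicates are separate mice. Log2 CPM used a prior count of 2. The members and lists were chosen with earlier results of these data known. Named genes were the 9 receptors, up to 4 genes of each list with the smallest p in a comparison, marker genes shown beside a receptor, and the 2 genes most like each receptor. Transcript lengths and GC content came from GENCODE M21, and a GC value was found for 98.1% of genes tested; the GC correction smoothed each library's deviation on GC content and entered it as an offset. Promoter windows came from RefSeq (GRCm38.p6). Alternatives were DESeq2 1.42.0, limma 3.58.1 voom with quality weights, other scalings and filters, only the groups compared, a replicate block, the GC correction and leaving out each library; leaving out 5 libraries together, a thalamic covariate and 2 combinations with the GC correction were added after seeing the data. RSEM divides reads that match several genes. A few genes of the lists are not reported here.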

Additional observations from a re-analysis of the deposited data

Results flagged for a closer look

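In 4 of 27 groups of 6 libraries, 1 library lay far from the others by Dixon's gap over the range of the group. The limit used flags about 1 in 20 groups of independent, normally distributed values. The groups here hold CPM without a log scale and share the same 18 libraries, so that rate need not hold for them. Adra1d in exercise replicate 4 was 77.1 CPM, where the other exercise libraries were at 21.8 to 40.9 CPM. Drd1 in control replicate 2 was 9.44 CPM, where the other controls were at 1.98 to 3.38 CPM. Drd5 in the same library was 2.63 CPM, where the other controls were at 13.7 to 17.3 CPM. Drd2 in CSDS replicate 5 was 7.08 CPM, where the other CSDS libraries were at 1.45 to 3.33 CPM.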

How the results depend on the processing

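Over 32 alternatives for each of 27 receptor fold changes (864 values), 793 kept sign and side of the threshold, 65 changed sign and 6 passed it, and 12 of the 27 never changed sign; where no value shows it, the cause was not tested. In CSDS against control 0 genes and 0 receptors were called under all 32. In exercise with CSDS against CSDS, DESeq2 called 149 genes, voom 5567, no filter 2, only the 2 groups compared 1 and the GC correction 1, where edgeR called 0; without 1 library the count was 0 to 625, and the receptors called were 4 by voom and 0 to 2 without 1 library (2 without exercise replicate 4, the fit with 625). Against control mice, in exercise mice edgeR called 3 genes, DESeq2 113 and voom 183; 0 were called with no filter, a filter of 1 CPM, only the 2 groups, the replicate block, the GC correction, both together, the thalamic covariate, without the 5 libraries or with control replicate 2 left out and GC corrected, 1 with exercise replicate 4 left out and GC corrected, and 0 to 13 without 1 library. Replicate numbers are not said to pair the mice. Libraries of the same number mostly did not deviate together (18 pairs, r of -0.465 to 0.255, 1 over 0.1, and 1 library correlated best with its own number). These correlations cannot exclude that same-numbered mice were handled together. With the replicate block 0 receptors were called.

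Values that changed sign, log2: in CSDS against control, without the 5 libraries, Adra1a -0.01, Adra1d -0.05, Adra2c -0.01, Drd2 -0.04 and Drd5 -0.04; by voom Adrb1 0.28, Drd2 -0.29 and Drd5 -0.01; with the replicate block Drd2 -0.05, and -0.08 with GC correction added; with control replicate 2 left out and GC corrected Adrb1 0.10, Drd2 -0.04 and Drd5 -0.05. Between exercise and CSDS mice, without the 5 libraries, Adra1b -0.33, Drd2 -0.28 and Drd5 0.0018; with the thalamic covariate Adra1a 0.02, Adra1b -0.04 and Drd2 -0.23; with exercise replicate 4 left out and GC corrected Adra2a 0.01. Between exercise and control mice, Adra1a 0.15 by voom, 0.01 with the block, 0.03 with the covariate, 0.03 with exercise replicate 4 out and GC corrected and 0.13 with control replicate 2 out and GC corrected; Adra2a 0.13 with GC correction, 0.10 with the block added, 0.28 and 0.13 with those libraries out; Drd2 -0.01 with the covariate and -0.32 without the 5; Drd5 -0.01 with no filter, -0.0014 with the 1 CPM filter, -0.12 by voom, -0.08 and -0.17 with those libraries out and GC corrected and -0.04 without the 5. Leaving out 1 library gave, in CSDS against control, Adra1a -0.05 to 0.21, Adrb1 -0.21 to 0.12, Drd2 -0.42 to 0.22 and Drd5 -0.04 to 0.26; in exercise with CSDS against CSDS, Adra1a -0.17 to 0.01, Adra1d -1.10 to -0.65, Adra2c -0.82 to -0.55 and Drd2 -0.30 to 0.50; between exercise and control mice, Adra1a -0.11 to 0.15, Drd2 -0.27 to 0.29 and Drd5 -0.19 to 0.11. Low counts limit Drd2 (31 to 144 per library), Drd1 (45 to 208) and Adra1a (57 to 158).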
